A study of Mus musculus with 4 samples.

Results

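The genes described here encode splicing factors and other RNA-binding proteins. They are all rows of the table whose symbol begins with the name of one of 9 families: SR proteins (Srsf), hnRNP proteins (Hnrnp), subunits of the spliceosome (Sf3a, Sf3b, Prpf, Snrnp, Snrpa to Snrpg), DEAD-box and DEAH-box helicases (Ddx and Dhx with a number, without Ddx3y), RBM proteins, SRRM and LUC7-like proteins, cell-type splicing regulators (Celf, Mbnl, Rbfox1, Rbfox2, Ptbp, Elavl, Qk) and the SAMD4 translational repressors. Symbols chose them, not their values, and 104 of the 6940 listed genes qualified. GENCODE M21 annotates 194 protein-coding genes with such names, so 53.6% of the families were in the table. The others were not analysed here.

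The 4 libraries are labelled as RNA of cultured oligodendrocytes, which form the myelin of the central nervous system. Their markers include many astrocyte transcripts, as given below, so the cells are named here by their label. Cells of C57BL/6 cortex at postnatal day 5 were enriched by immunopanning with antibodies to GalC and then O4, grown for 6 days, and differentiated for 24 h with triiodothyronine (T3, 40 ng/mL). The 2 control libraries carried Zdhhc5fl/fl, floxed alleles of a palmitoyltransferase gene, and the 2 conditional knockout (cKO) libraries carried Zdhhc5fl/fl and Olig1cre/+, so both groups shared the floxed alleles. Cre stands in the Olig1 locus, which is active in the oligodendrocyte lineage, and the controls carry no Cre: loss of Zdhhc5, the presence of Cre and the altered Olig1 allele cannot be told apart. Nothing in the labels tells whether libraries of the same genotype are separate animals or cultures, so p-values measure only the spread between these libraries, which may be technical.

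Splicing removes introns from pre-mRNA. The spliceosome, built from small nuclear ribonucleoproteins and remodelled by DEAD-box and DEAH-box helicases, does the cutting and joining. SR proteins bind exons and mostly promote their inclusion, hnRNP proteins often oppose them, and factors such as QKI, PTBP, MBNL, CELF, RBFOX and ELAVL proteins set cell-type patterns of splicing and mRNA stability. In oligodendrocytes QKI is the best known of these: it binds RNAs that encode myelin proteins, and the quaking mouse, in which it is deficient, fails to myelinate normally. SAMD4B belongs to the Smaug family, which binds stem-loops in mRNA and represses translation.

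The results below turn on how base composition differed among these genes. GC content was the share of G and C in the longest protein-coding transcript of each gene, and 79 of 104 members (76.0%) lay below the median of the listed genes. Stretches of coding sequence from 3 genes that fell and had GC-poor transcripts (Ptbp3, Hnrnpa3, Qk) and 3 genes with GC-rich transcripts (Elavl3 and Samd4b, which fell, and Srrm3, which rose) show that contrast. Each stretch is 90 bases within 1 exon, chosen by a script as the window nearest to its transcript's own GC content, from the GENCODE M21 transcripts (GRCm38), 5′ to 3′ on the gene's strand. Capitals mark G and C. The stretches illustrate composition only and are not binding sites.
Ptbp3: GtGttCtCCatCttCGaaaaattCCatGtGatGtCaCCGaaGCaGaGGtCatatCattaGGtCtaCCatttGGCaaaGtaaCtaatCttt
Hnrnpa3: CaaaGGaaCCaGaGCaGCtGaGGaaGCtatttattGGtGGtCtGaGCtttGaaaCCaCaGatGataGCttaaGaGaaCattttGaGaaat
Qk: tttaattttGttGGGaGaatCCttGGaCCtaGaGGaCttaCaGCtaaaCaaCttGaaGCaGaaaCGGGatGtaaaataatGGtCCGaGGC
Elavl3: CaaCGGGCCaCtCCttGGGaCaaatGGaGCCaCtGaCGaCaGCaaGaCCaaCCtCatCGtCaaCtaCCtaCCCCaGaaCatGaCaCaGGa
Samd4b: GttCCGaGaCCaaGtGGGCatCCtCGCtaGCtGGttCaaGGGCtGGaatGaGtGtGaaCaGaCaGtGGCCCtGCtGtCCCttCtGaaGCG
Srrm3: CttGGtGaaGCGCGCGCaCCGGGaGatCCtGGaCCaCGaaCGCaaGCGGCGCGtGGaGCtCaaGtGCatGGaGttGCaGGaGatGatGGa
The Ptbp3 stretch lies in exon 3 of 14 (chr4:59517609-59517698, minus strand, 38.9% GC), that of Hnrnpa3 in exon 2 of 11 (chr2:75661476-75661565, plus strand, 40.0%) and that of Qk in exon 3 of 8 (chr17:10273974-10274063, minus strand, 41.1%). The Elavl3 stretch lies in exon 2 of 7 (chr9:22036712-22036801, minus strand, 54.4%), that of Samd4b in exon 2 of 13 (chr7:28423537-28423626, minus strand, 57.8%) and that of Srrm3 in exon 2 of 15 (chr5:135835184-135835273, plus strand, 62.2%).

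The listed genes held 13672254 to 20068016 recovered reads per library. The table lists only genes that passed the authors' threshold, 40.0% of the 17347 genes they tested, so every listed gene differed between genotypes by selection and the calls below describe these genes without adding evidence. Zdhhc5 was not analysed here, so its level did not check the genotype labels. Among marker genes, all 12 oligodendrocyte markers fell, from a summed level of 469107 to 473194 normalised reads in the controls to 107919 to 110968 in cKO. The sum of 11 astrocyte markers was above that in every library, at 524420 and 525231 in the controls and 787549 and 779145 in cKO. That sum rests largely on 1 gene, Gfap, at 351481 and 352111 in the controls and 557247 and 553584 in cKO. Of the markers of other cells in the table, 9 of 11 for astrocytes, 10 of 12 for neurons, 10 of 10 for pericytes and fibroblasts, 5 of 5 for microglia, 3 of 5 for endothelium and 2 of 6 for precursors rose. In bulk RNA, fewer cells of a type and less RNA per cell cannot be told apart. The part of these markers in the results below was not tested.

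Most of the listed splicing and RNA-binding genes were lower in cKO with the authors' scaling. A call was an adjusted p under 0.05 in limma, fitted to log2(normalised reads + 1) of the whole table, and log2 fold changes (cKO minus control) are on that scale, which understates changes of low genes. By this rule 100% of the listed genes were called. Of the 104 members, 83 fell (79.8%) and 21 rose (20.2%), and over all listed genes 53.3% fell and 46.7% rose. The median log2 fold change was -0.41 among members and -0.22 among all listed genes. The changes were mostly small. At 1.5-fold or more, 30 members (28.8%) were lower, near the 27.6% of listed genes, and this count was 15 with relative log expression factors, 14 with DESeq2 and 9 after removal of the trend with GC content. At that size 4 members were higher (Srrm4, Srrm3, Celf5 and Celf3), 3.85% against 17.4%. At 2-fold or more, 8 members (7.69%) were lower against 11.7% of listed genes, and 0 were higher against 5.68%. In all 104 members the genotypes did not overlap, and this held for 6939 of 6940 listed genes, so it does not set the members apart (46.7% higher and 53.3% lower). Without cKO library 1 the members at least 1.5-fold higher numbered 2, not 4.

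**Figure D1:**
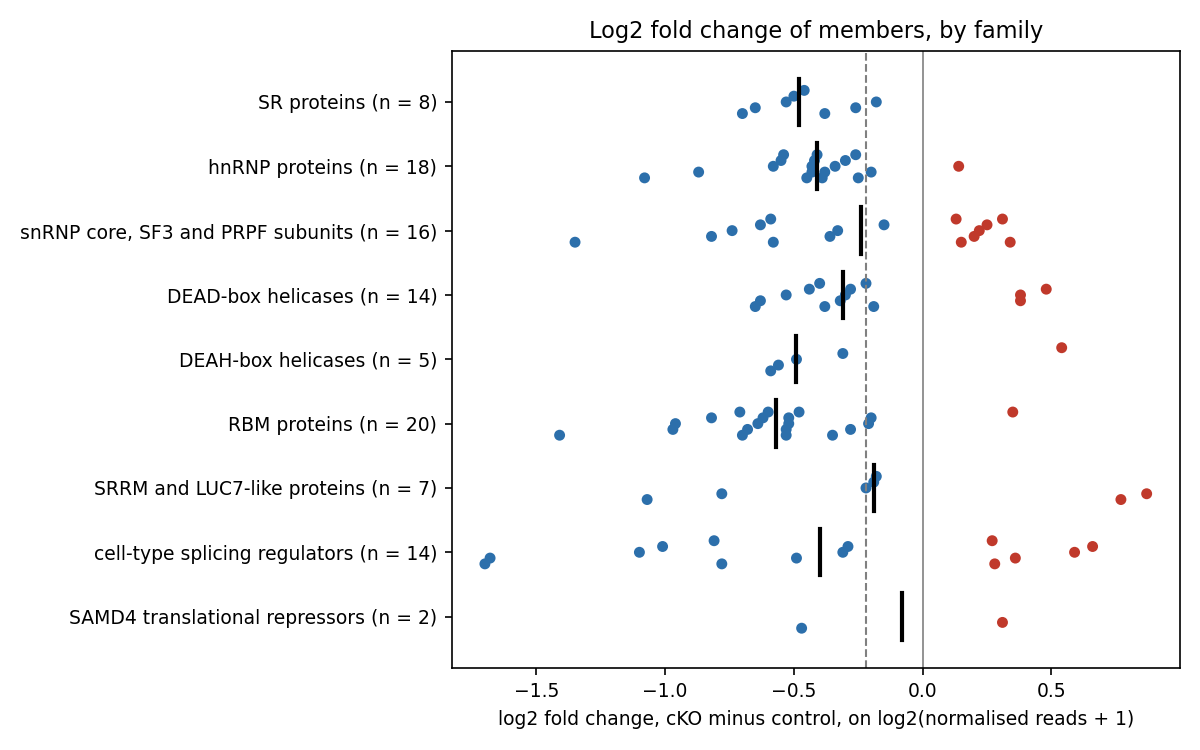
Log2 fold change of each member (1 point per gene, cKO minus control; blue lower, red higher; the vertical offset only separates points), by family. Black bars mark family medians and the dashed line the median of all listed genes (-0.22). All 8 SR proteins, 17 of 18 hnRNP genes and 19 of 20 RBM genes lie below 0, and the spliceosome subunits and cell-type regulators lie on both sides. Over all listed genes 53.3% lie below 0.

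The scaling of the libraries sets part of this split. When factors were recomputed from the listed genes alone (relative log expression), the median of all listed genes moved up by 0.191, and 79 members lay below 0 and 25 above, with a median of -0.22 (-0.03 over all listed genes). The members called lower numbered 59 with these factors and 56 with DESeq2 in place of 83, and 21 were called higher in each. Of all 6940 listed genes, 2914 were called lower and 3250 higher with these factors. Under DESeq2, which used factors of that kind, 56.3% of all called genes were higher in place of 46.7%, since lower calls went from 3696 to 2521 and higher calls from 3244 to 3247. Ratios between members within a library, given below, are free of this choice.

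Fold changes followed transcript GC content, among members as among all listed genes. Across genes, Pearson's r between GC content and log2 fold change was 0.64 and Spearman's rho 0.68 over the 104 members, and r was 0.46 and rho 0.53 over 6934 listed genes. Genes share the 4 libraries and their base composition and are not independent replicates, so these are descriptions. The members are GC-poor, with a median of 45.2% against 49.7% for all listed genes. The listed genes were divided into 5 equal bins by GC content. In the bin with the lowest GC content (31.0% to 43.5%), 39 of 40 members fell (97.5%, against 93.0% of listed genes), with a median log2 fold change of -0.63 against -0.68. In the next bin (43.5% to 47.7%) 27 of 29 members fell (93.1% against 78.4%), and in the middle bin (47.7% to 51.8%) 10 of 16 (62.5% against 48.1%). In the upper bins the medians were positive. Between 51.8% and 56.0% GC 4 of 10 members fell (40.0% against 26.4%), and between 56.0% and 72.8% 3 of 9 fell (33.3% against 20.1%), with medians of 0.22 in both, against 0.36 and 0.41 for listed genes. Between the libraries of 1 genotype the median difference in a bin was at most 0.06 in size.

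**Figure D2:**
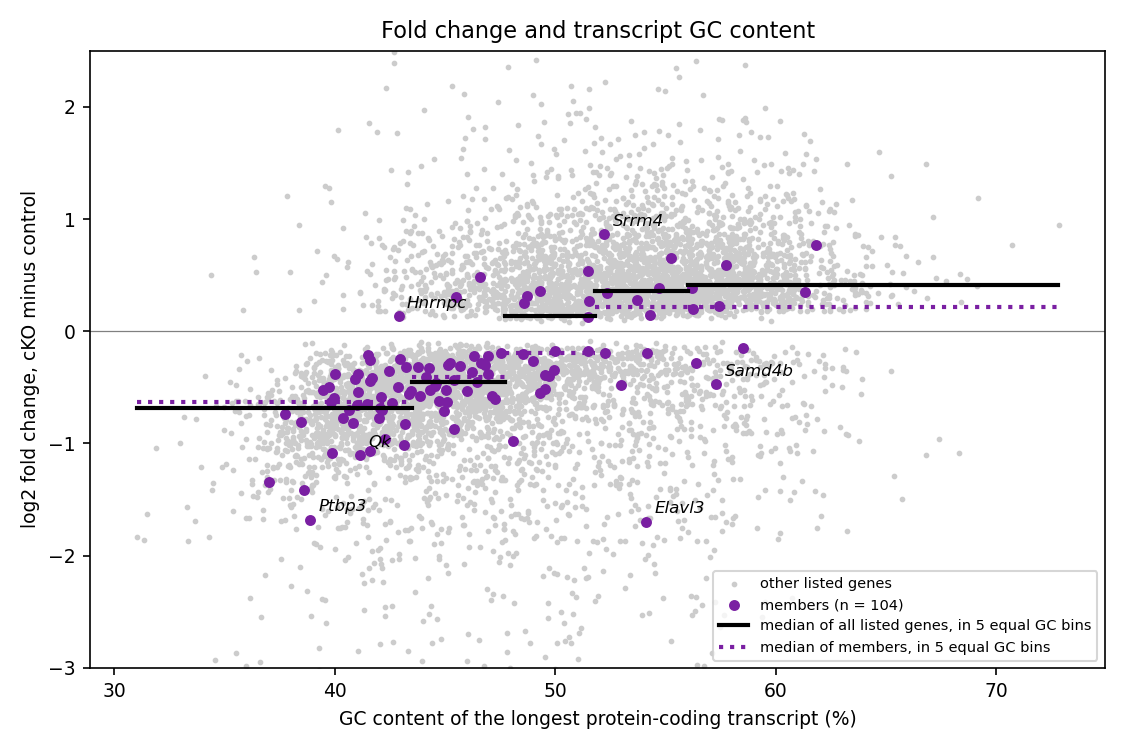
Log2 fold change (cKO minus control) against GC content of the longest protein-coding transcript (%), for members (purple) and other listed genes (grey; 41 genes lie outside the plotted range of -3 to 2.5). Horizontal bars are medians in 5 equal bins of GC content, black for all listed genes and dotted purple for members. The black bars run from -0.68 in the lowest bin to 0.41 in the highest and the members' from -0.63 to 0.22, and Elavl3 and Samd4b lie below them.

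Each library's deviation from the gene's mean over the 4 libraries was then fitted as a smooth trend on GC content. That trend was subtracted from the library. By construction this takes out the part of the difference between genotypes that follows GC content, whatever its source. The members' median became -0.09 against -0.07 for all listed genes. Of the members, 43 were called lower (41.3%, against 39.7% of listed genes), 19 higher (18.3% against 28%), and 42 were not called. The sign turned in 33 members: 25 that had fallen lay above 0 and 8 that had risen lay below. Of the 83 that fell, 38 were called lower in both fits. What sets the relation to GC content was not tested, so both values are given below for the genes that matter. GC content depends on the transcript taken, and for several genes where the longest transcript of any type differed much, that value is given too.

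**Figure D3:**
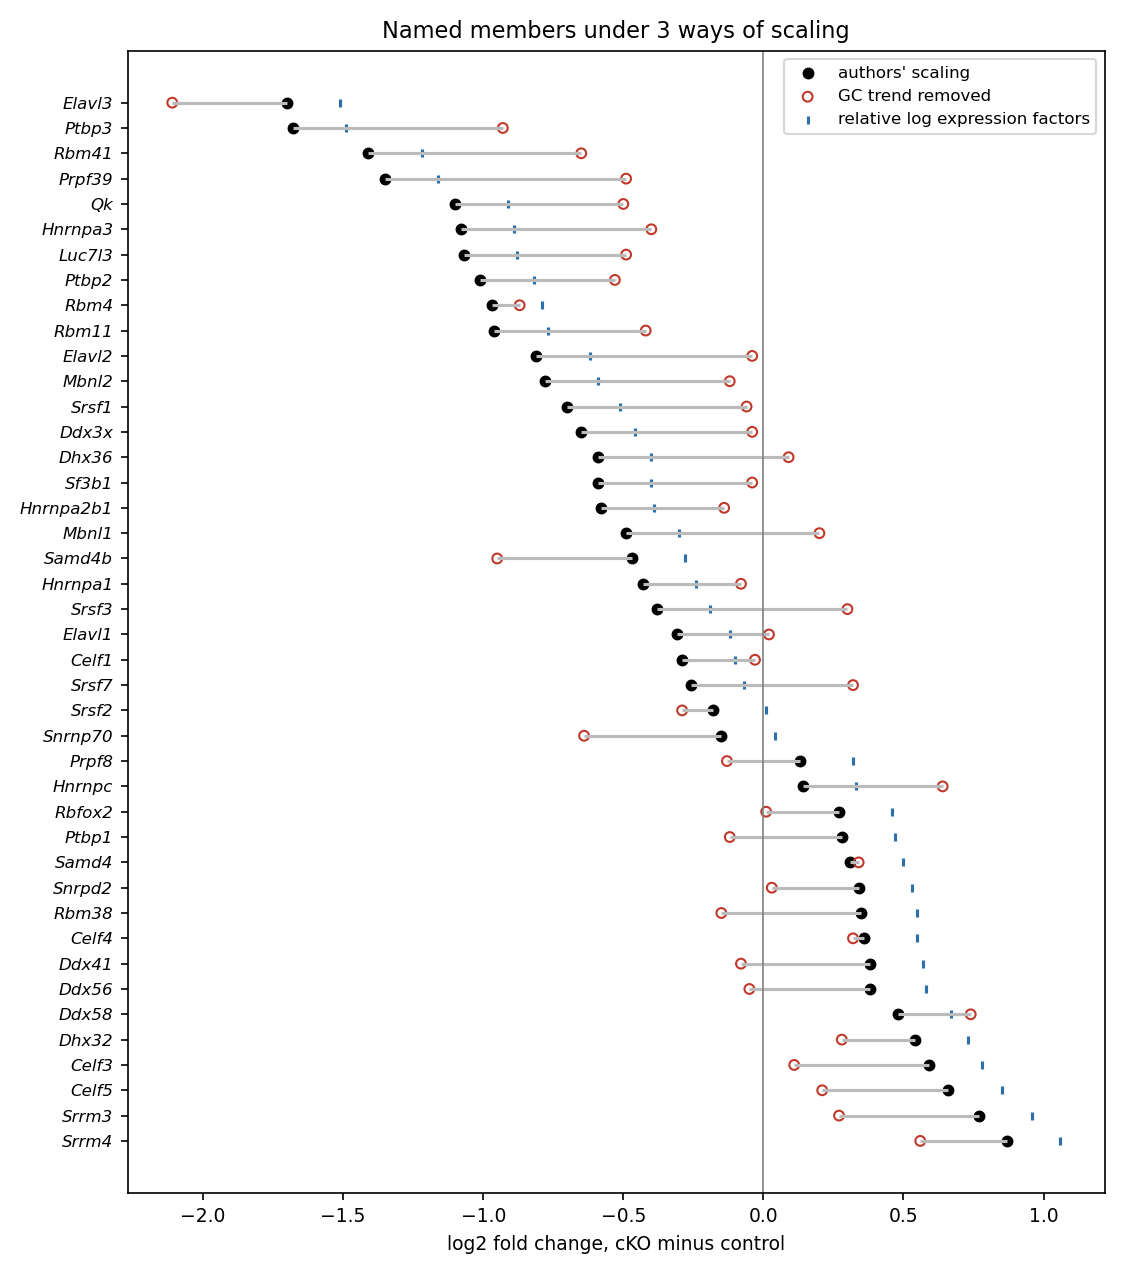
Log2 fold change (cKO minus control) of the named members with the authors' scaling (black), with the GC trend removed (open red) and with relative log expression factors (blue bars). Elavl3 and Samd4b move further below 0 when the GC trend is removed, to -2.11 and -0.95, and Srsf3, Srsf7, Dhx36, Mbnl1 and Elavl1 move to above 0.

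Qk encodes QKI, the RNA-binding protein altered in quaking mice. The gene (chromosome 17, 10202601 to 10319854, GRCm38) stood at 35714 and 36079 normalised reads in the controls and at 17150 and 16278 in cKO. Both cKO libraries lay below both controls, 2.15-fold lower on average (log2 fold change -1.10, SE 0.03, n = 2 per genotype, adjusted p = 1.62e-19, limma). Per kilobase of gene length, Qk was the 5th most abundant member in the controls (2521 reads per kb) and the 10th in cKO (1174). With the GC trend removed it was still called lower, at -0.50.

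The neuronal ELAV-like gene Elavl3 had the strongest fall of any member. Its protein binds U-rich elements and stabilises neuronal mRNAs. The values were 7310 and 7585 normalised reads in the controls and 2363 and 2232 in cKO. The genotypes stood far apart, 3.24-fold (log2 fold change -1.70, SE 0.04, adjusted p = 1.15e-20, limma). Unlike most members that fell, Elavl3 has a GC-rich transcript (54.1%), and its difference was larger with the GC trend removed (-2.11). Beside it, the summed level of 12 neuronal markers was 20934 and 21187 in the controls and 21935 and 21793 in cKO. Map2 was the largest part of that sum, at 10562 and 10543 in the controls and 7544 and 7212 in cKO. Among the markers Map2 and Dcx fell too, by 0.52 and 0.40 on the log2 scale, and the other 10 rose. Their part in the fall of Elavl3 was not tested. Elavl2, another neuronal member of the family, fell at a much lower level, from 258 and 239 to 147 and 135 (log2 fold change -0.81, and -0.04, not called, with the GC trend removed). Elavl1, which encodes the widely expressed HuR, fell by 0.31 on the log2 scale and lay at 0.02 with the GC trend removed. Within libraries, the ratio of Elavl3 to Elavl1 reads was 3.29 and 3.59 in the controls and 1.36 and 1.27 in cKO. That ratio fell although Elavl3 is richer in GC by 8.5 percentage points.

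The polypyrimidine tract-binding proteins, repressors of exons flanked by pyrimidine-rich sequence, moved in different directions. Ptbp3 fell from 1694 and 1683 normalised reads to 549.5 and 505.5, 3.20-fold (log2 fold change -1.68, SE 0.07, adjusted p = 1.17e-16, limma). Ptbp2, the paralogue typical of developing neurons, fell from 2135 and 2306 to 1051 and 1149, 2.02-fold. Ptbp1, typical of non-neuronal and progenitor cells, rose from 3235 and 3322 to 4017 and 3955, 1.22-fold. In each of the 3 genes the genotypes were apart. The Ptbp1 to Ptbp2 ratio of reads was 1.52 and 1.44 in the controls and 3.82 and 3.44 in cKO, and that of Ptbp1 to Ptbp3 was 1.91 and 1.97 against 7.31 and 7.82. The paralogues also differ in GC content, by 10.6 and 14.8 percentage points. With the GC trend removed Ptbp3 stayed at -0.93, Ptbp2 lay at -0.53 (but at -0.06 with the longest transcript of any type) and Ptbp1 turned to -0.12.

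The other cell-type regulators moved in both directions. Muscleblind-like proteins regulate splicing and mRNA localisation. Mbnl2 fell from 2487 and 2491 normalised reads to 1483 and 1424, 1.71-fold, and Mbnl1 from 745 and 760 to 552 and 517, 1.41-fold. With the GC trend removed Mbnl2 lay at -0.12 (-0.84 with the longest transcript of any type) and Mbnl1 at 0.20. CELF proteins bind GU-rich elements. Celf3, a mainly neuronal member, rose from 402 and 394 to 609 and 593, and Celf5 from 298 and 324 to 515 and 466. These were 1.51-fold and 1.58-fold rises with no overlap, and neither was called with the GC trend removed (0.11 and 0.21). Celf4 rose by 0.36 on the log2 scale and was still called at 0.32, whereas the broadly expressed Celf1 fell by 0.29 and lay at -0.03. The ratio of Celf1 to Celf3 reads was 10.6 and 11.0 in the controls and 5.84 and 5.88 in cKO. Rbfox2, which binds GCAUG elements near alternative exons, rose 1.20-fold, and was at 0.01 with the GC trend removed. Of the 14 regulators of these families in the table, 9 fell and 5 rose, with a median of -0.40. Over all listed genes 53.3% fell and 46.7% rose, with a median of -0.22.

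**Figure D4:**
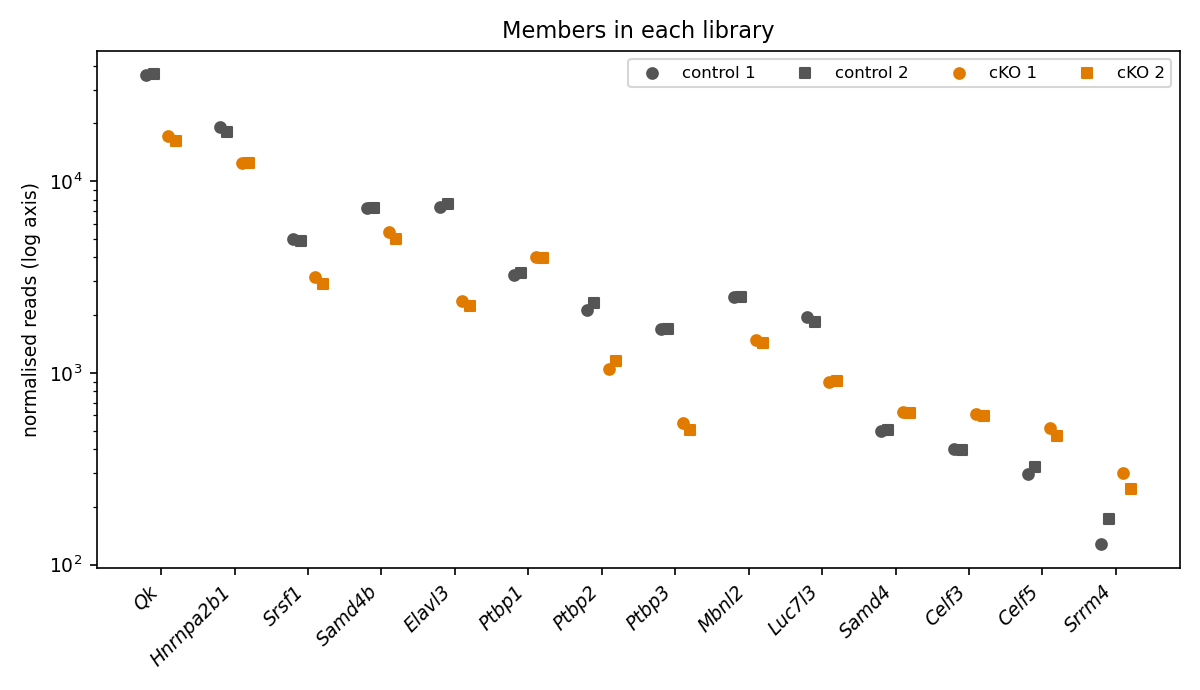
Normalised reads (log axis) of 14 members in each library, controls in grey and cKO in orange, circles for library 1 and squares for library 2. In each gene both cKO points lie on the same side of both controls. Qk, Elavl3 and Ptbp3 are among those that fell, and Ptbp1, Samd4, Celf3, Celf5 and Srrm4 rose.

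The Smaug paralogues moved in opposite directions. Samd4b stood at 7202 and 7249 normalised reads in the controls and at 5440 and 4985 in cKO, 1.39-fold lower (log2 fold change -0.47, SE 0.04, adjusted p = 3.23e-10, limma). Samd4 stood at 497 and 501 in the controls and at 621 and 617 in cKO, 1.24-fold higher (log2 fold change 0.31, adjusted p = 0.00159). The genotypes did not overlap for either gene. Samd4b (chromosome 7, 28399522 to 28598144) was the more abundant, at 1547 against 57.6 reads per kb in the controls, and the ratio of their reads was 14.5 in both controls and 8.76 and 8.08 in cKO. Samd4b is GC-rich (57.3%), among transcripts that mostly rose, and with the GC trend removed it was at -0.95, while Samd4 was at 0.34.

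All 8 SR proteins in the table fell, by 0.18 to 0.70 on the log2 scale, where 53.3% of all listed genes fell. Srsf1, the founding member and a regulator of 5′ splice site choice, fell from 4993 and 4884 normalised reads to 3157 and 2912, 1.63-fold. Srsf3 fell from 5547 and 5604 to 4290 and 4284, and Srsf7 from 2151 and 2157 to 1764 and 1834. In these 3 genes both cKO libraries were below both controls. The smallest fall was that of Srsf2 (1.13-fold). The family is GC-poor (median 42.2%), and in the lowest GC bin 93.0% of all listed genes fell. Its median log2 fold change moved from -0.48 to -0.06 with the GC trend removed. That left Srsf1 not called (-0.06) and Srsf3 and Srsf7 called higher (0.30 and 0.32).

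The kinases that phosphorylate SR proteins were lower too. Of 7 kinases 6 were in the table and all 6 fell, with a median of -0.75, where 53.3% of all listed genes fell. With the GC trend removed 5 of 6 were called lower (median -0.47), where 39.7% of listed genes were. With the longest transcript of any type Srpk1 lay at -0.05 in place of -0.35 and Clk4 at -0.25 in place of -0.48. Srpk3 fell from 291 and 270 normalised reads to 70.2 and 86.6, 3.58-fold. Clk1 fell from 1067 and 996 to 487 and 481, 2.13-fold. Clk2 fell least, 1.26-fold, and lay at -0.79 with the GC trend removed.

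Among hnRNP genes, 17 of 18 fell, where 53.3% of all listed genes fell. Their median was -0.41, and most changes were below 1.5-fold. Hnrnpa2b1 encodes the protein that carries Mbp mRNA in oligodendrocyte transport granules. It went from 19059 and 18012 normalised reads to 12384 and 12417 (1.49-fold lower, log2 fold change -0.58), and was called lower at -0.14 with the GC trend removed. Per kilobase Hnrnpa1 was the most abundant member in both genotypes, at 3402 reads per kb in the controls and 2524 in cKO. Hnrnpa1 fell 1.35-fold and was not called with the GC trend removed (-0.08). Hnrnpa3 fell most, from 1772 and 1817 to 821 and 871 (2.12-fold, and -0.40 with the trend removed). Hnrnph1, which binds G-rich elements, fell 1.83-fold, and lay at -0.53 or -0.08 with the trend removed, depending on the transcript taken. Hnrnpc, which binds U-rich introns, alone of the family was higher, at 8049 and 8126 in the controls and 8594 and 9194 in cKO. It was called higher at 0.14, which became 0.64 with the GC trend removed and 0.09 without cKO library 2. Reads of Hnrnpa1 and Hnrnpa3 are uncertain where processed pseudogenes share their sequence, since the counting rule was not given in the sources used here.

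For the core of the spliceosome, 16 of 40 annotated subunits were listed and 24 were not. Among those listed, 9 were lower and 7 higher, where 53.3% of all listed genes fell and 46.7% rose. Their median was -0.24 against -0.22 for all listed genes, so neither the split nor the median sets these subunits apart. Those that fell included Prpf39, a U1-associated protein, from 414 and 380 normalised reads to 149 and 161 (2.55-fold, -1.35 on the log2 scale), and lay at -0.49 with the GC trend removed. Sf3b1, the subunit of U2 that holds the branch point, fell from 5482 and 5555 to 3774 and 3562 (log2 fold change -0.59, and -0.04, not called, with the trend removed). Its partner in the same complex, Sf3b2, was 1.11-fold higher, but was called lower with the trend removed (-0.27). The ratio of Sf3b1 to Sf3b2 reads was 0.809 and 0.823 in the controls and 0.505 and 0.474 in cKO, and Sf3b1 is poorer in GC by 12.2 percentage points. The rises were small: Snrpd2, a protein of the Sm ring, was highest at 0.34 (0.21 without control library 2), and Prpf8, the scaffold of the catalytic centre, was at 0.13. Snrnp70, which binds U1 RNA, fell by 0.15 and lay at -0.64 with the GC trend removed.

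Several of these small changes lost their call in limma when 1 library was left out. Without control library 1, Snrpc was at 0.16 in place of 0.25 (adjusted p = 0.0757), Sf3b4 at 0.13 in place of 0.20 (0.162) and Luc7l at -0.14 in place of -0.22 (0.0814). Snrnp70 was at -0.12 in place of -0.15 (adjusted p = 0.116). Without cKO library 1, Sf3b4 was at 0.13 (adjusted p = 0.0681) and Rbm22 at -0.14 in place of -0.20 (0.0655). Without control library 2, Prpf8 was at 0.12 in place of 0.13 (adjusted p = 0.0502). Once the GC trend was removed Snrpc was at 0.30, Sf3b4 at -0.26, Luc7l at 0.00 and Rbm22 at -0.15. With the longest transcript of any type Snrpc was at 0.53 and Rbm22 at -0.01. These 6 were the only members to lose their call when 1 library was left out. Ddx50 was at -0.21 in place of -0.32 without cKO library 1. With the GC trend removed it lay at 0.13, not called, and at 0.46 with the longest transcript of any type.

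The RNA helicases fell in most cases. Of 14 DEAD-box genes 11 fell (median -0.31), and of 5 DEAH-box genes 4 fell (median -0.49), where 53.3% of all listed genes fell. Ddx3x, which unwinds mRNA for translation, fell from 7383 and 7771 normalised reads to 4657 and 4985 (1.57-fold), with -0.04 once the GC trend was removed. Ddx5 was the most abundant helicase, at 2664 reads per kb in the controls, and fell 1.36-fold, but was called higher once the GC trend was removed (0.13, or 0.00 if the longest transcript of any type is taken). Dhx36, which unwinds G-quadruplexes, had the lowest value of the DEAH-box genes (-0.59) and lay at 0.09 with the GC trend removed. The rises were those of Dhx32, from 1836 and 1908 to 2796 and 2641 (1.45-fold, and 0.28 with the trend removed), and of Ddx58, Ddx41 and Ddx56. Ddx58 encodes RIG-I, a sensor of viral RNA, and stood at 358 and 297 in the controls and 504 and 414 in cKO. It was called higher at 0.48 and at 0.74 with the GC trend removed. Ddx41 and Ddx56 both stood at 0.38 and turned below 0 with the trend removed (-0.08 and -0.05).

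Among RBM genes, 19 of 20 fell, with a median of -0.57, where 53.3% of all listed genes fell. With the GC trend removed 12 of 20 were called lower, where 39.7% of listed genes were, and the median was -0.23. Several of these values depend on the transcript taken. With the longest of any type Rbm15 lay at -0.09 in place of -0.84 and Rbm5 at -0.14 in place of -0.41. Rbm22 lay at -0.01 and Rbm25 at 0.07, each in place of -0.15. Rbm7 went the other way, to -0.04 from 0.19. Rbm41 fell from 370 and 440 normalised reads to 137 and 166 (2.67-fold, and -0.65 with the trend removed). Rbm4 fell from 105 and 130 to 58.8 and 59.3 (1.99-fold, and -0.87, or -0.58 with the longest transcript of any type). Rbm11 fell from 122 and 126 to 71.9 and 55.8 (1.95-fold, and -0.42, not called). All 3 were expressed at low levels, with both cKO libraries below both controls. Rbm39, which is related to the splicing factor U2AF, fell 1.77-fold and was at -0.34 with the trend removed. Rbm38 alone of the family rose (1.28-fold), and lay at -0.15 with the trend removed. Reads of Rbm4, Rbmx, Ddx3x and Ddx19b are uncertain because Rbm4b, Rbmxl1, Ddx3y and Ddx19a are close copies.

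There were 5 X-linked members (Ddx3x, Rbm41, Rbmx, Rbm3 and Hnrnph2), and all fell, where 53.3% of all listed genes fell. Rbmx fell by 0.62, Hnrnph2 by 0.38 and Rbm3 by 0.21 on the log2 scale. Removal of the GC trend left Rbm41 and Rbmx called lower (-0.65 and -0.23), Ddx3x not called, and Rbm3 and Hnrnph2 called higher (0.37 and 0.23). Beside them, Xist, the RNA of the inactive X chromosome, stood at 7714 and 7771 normalised reads in the controls and 2454 and 2219 in cKO. The Y-linked Eif2s3y, Uty and Kdm5d fell as well, by 1.12, 1.04 and 0.67 on the log2 scale. Transcripts of both sex chromosomes were therefore present in each library and lower in cKO, and their part in the X-linked results was not tested.

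The SRRM and LUC7-like proteins held the largest rises and 1 of the larger falls. Srrm4 directs inclusion of neuronal microexons and rose from 128 and 173 normalised reads to 299 and 248 (1.82-fold, log2 fold change 0.87, SE 0.14, adjusted p = 1.57e-05, limma). Srrm3, its paralogue, rose from 71 and 63.1 to 109 and 121 (1.72-fold). Both genes were low, and the controls lay below cKO in each. Srrm4 was still called with the GC trend removed (0.56) and Srrm3 was not (0.27). The ratio of Srrm2, a core component of nuclear speckles, to Srrm4 reads was 51.1 and 39.6 in the controls and 20.0 and 23.0 in cKO, and their transcripts have 52.3% and 52.2% GC. Luc7l3, a U1-associated protein, fell from 1961 and 1848 to 901 and 911 (2.10-fold, and -0.49 with the trend removed). Luc7l2 fell 1.71-fold (-0.22 with the trend removed) and Luc7l by 0.22 on the log2 scale. Neuronal genes did not move as 1 group. Srrm3, Srrm4, Celf3, Celf4 and Celf5 rose, as did 10 of 12 neuronal markers. Elavl3 (-1.70), Elavl2 (-0.81) and Ptbp2 (-1.01) fell, as did the markers Map2 and Dcx. Any common part of these genes and markers was not tested.

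Genes of 7 further lists of splicing and mRNA factors, the SR kinases included, held 95 genes, of which 50 were in the table. Of these 43 fell and 7 rose, where 53.3% of all listed genes fell. With the GC trend removed 25 were called lower and 9 higher, where 39.7% and 28% of listed genes were. All 6 listed genes of the group of TAF15, TDP-43 and the DBHS paraspeckle proteins fell, with a median of -0.39, from Nono (-0.21) to Matr3, which fell 1.72-fold and lay at -0.02 with the trend removed. The 3 exon junction and decay factors fell (median -0.82), with Smg1, the kinase of nonsense-mediated decay, from 2357 and 2512 to 1177 and 1293 (1.97-fold, and -0.60 with the trend removed), and Upf2 1.54-fold. Of the Prp19 and step factors 4 of 5 fell, from Cwc27 (-0.46) to Syf2, which rose by 0.21. Of the 3′ splice site factors U2surp fell by 0.60 and Dnajc8 rose by 0.22. Both LSM genes in the table, Lsm4 and Lsm7, rose by 0.32 and 0.33 on the log2 scale, are GC-rich, and turned to -0.17 and -0.12 with the trend removed. Of 26 other regulators 23 fell (median -0.46). The neuronal Rbfox3 rose from 144 and 187 to 315 and 331 (1.95-fold). The epithelial Esrp1 had 25 and 15.3 normalised reads in the controls and 2.45 and 0 in cKO.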

How the data were processed

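The authors deposited 1 table of normalised signal (counts over a size factor), p-values, adjusted p-values, log2 fold changes and gene lengths for 4 libraries, per the file headers; the submitters' processing notes name DESeq2, mm10 and GRCm38. Not given in the sources used here were aligner, counting rule, strand setting and annotation, so reads of overlapping antisense genes cannot be separated. Whole reads were recovered for 100% of values (within 0.01 read), and 0 columns belonged to other samples. Columns were matched to samples by name.

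All 6940 genes passed a filter (2 or more libraries with a value of 1 or higher). They were fitted with limma 3.58.1 (R 4.3.3) on log2(value + 1) with a variance trend and genotype alone, leaving 2 residual degrees of freedom. P-values were adjusted by Benjamini-Hochberg over 17347 genes, with a threshold of 0.05. Because listed genes were selected for their difference, the pooled variance may be too small. With 2 libraries per genotype an exact permutation test of 1 gene cannot go below p = 0.333. GC content came from GENCODE M21, and 6934 genes had a value. A lowess curve of each library's deviation on GC content, or on log2 length, was subtracted as an alternative. Other alternatives were other pseudocounts and filters, relative log expression and TMM factors, edgeR 4.0.16 and DESeq2 1.42.0 on recovered reads, a replicate block, and leaving out each library. The scripts were tested on simulated data.

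The members and lists were chosen with earlier results of these data known. Named genes were the 10 largest rises and 10 largest falls among members, the highest and lowest of each family and list, and a fixed set of well-known regulators. Other members named (Hnrnph1, Rbm39, Ddx5, Luc7l, Luc7l2, Srrm2, Sf3b2, Clk1, the X-linked genes and those that lost a call or moved without 1 library) were chosen after their values were seen. So were Rbm5, Rbm7, Rbm15, Rbm25, Srpk1 and Clk4. Protein sequences were not used here, and some genes of the lists are not reported here.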

Additional observations from a re-analysis of the deposited data

How the results depend on the processing

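Pseudocounts of 0.5 or 5, other filters and adjustment over the listed genes alone changed no direction or call among named genes, except that Esrp1 did not reach the higher filter and has no value there. Across genes, same-numbered libraries deviated from their genotype means with a correlation of 0.0133. Differences within a genotype were small, so this value cannot tell whether such libraries were prepared together. With the number as a replicate block, 21 members rose and 83 fell, and 3242 listed genes rose and 3696 fell. Leaving out 1 library in turn gave 2 to 5 members at least 1.5-fold higher, 27 to 30 lower, and medians of -0.43 to -0.40. The members at least 1.5-fold lower numbered 15 with relative log expression factors, 14 with DESeq2, 19 with the length trend removed, and 9 (10 with the longest transcript of any type, an alternative chosen after seeing the data) with the GC trend removed. The members at least 1.5-fold higher numbered 7 with the length trend removed. With the GC trend removed 43 (41) members were called lower and 1942 (1961) listed genes higher. The members' median was -0.22 with relative log expression factors and DESeq2, -0.34 with TMM and edgeR, -0.26 with the length trend removed and -0.09 (-0.08) with the GC trend removed. Of 56 named genes, 18 kept direction and call under every setting, and size was not compared.

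Among genes named by the rule and family medians, signs turned as follows, and the cause was not tested. With relative log expression factors and with DESeq2 alike: Srsf2 0.01, Snrnp70 0.04 and the SAMD4 median 0.11. With the length trend removed: Celf1 0.00, Elavl1 0.02, Mbnl1 0.10, Snrnp70 0.12, Lsm7 -0.12, Dnajc8 -0.13, Lsm4 -0.15, Syf2 -0.21, and medians of 0.08 (SRRM and LUC7-like), 0.01 (cell-type regulators) and 0.05 (SAMD4). With the GC trend removed (longest transcript of any type in brackets): Ddx41 -0.08 (-0.08), Ddx56 -0.05 (-0.05), Dhx36 0.09 (0.05), Elavl1 0.02, Lsm4 -0.17 (-0.17), Lsm7 -0.12 (-0.12), Mbnl1 0.20 (0.16), Prpf8 -0.13 (-0.14), Ptbp1 -0.12 (-0.12), Rbm38 -0.15 (-0.16), Srsf3 0.30 (0.21), Srsf7 0.32 (0.28), U2surp 0.18 (0.13), Rbfox2 (0.00), Syf2 (0.00) and the DEAH-box median 0.09 (0.05). Of other members in the text, the GC trend removed turned Ddx5, Sf3b2, Sf3b4, Rbm3, Rbm7, Hnrnph2, Ddx50 and, just above 0, Luc7l, with values beside them. With the longest transcript of any type Rbm25 turned (0.07). The length trend removed turned Luc7l (0.05), Srrm2 (0.23), Ddx50 (0.01), Sf3b2 (-0.07), Sf3b4 (-0.20) and the kinase gene Srpk1 (0.01). The table holds called genes only and no library's whole depth. Genes that did not differ, and with them the share of each family that changed, lie outside what it can show.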
